A study of Danio rerio with 35 samples.

Results

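The transcripts described here were 58 of the 27151 single-gene entries of the exon table, those that were scarce before genome activation and more abundant in cycloheximide-treated zebrafish embryos than in wild-type (WT) embryos at 6 hours post fertilization (hpf). Members were chosen by their levels in RPKM (reads scaled to the size of the library and the length of the gene): an entry was taken when WT at 2 hpf was under 1 RPKM, cycloheximide at 6 hpf was at 5 RPKM or more and at least 4 times alpha-amanitin at 6 hpf, and cycloheximide was also at least 2 times the mean of the 3 WT libraries at 6 hpf. The first 3 criteria took 164 entries, and the last one kept 58 and left 106. With each library centred on its median, 37 of the 58 met the rule, and irx7, mxtx2, the mir-430 hairpin, isg15 and cdkn1a were among the 21 that did not. A gene symbol was matched to 30 of the 58 and none to the other 28, against 78 of the 106 entries left below the last threshold.

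Early zebrafish embryos run on RNA stored in the egg until their own genome is switched on, a change known as the maternal-to-zygotic transition. Cycloheximide blocks translation. Transcripts which still appear are those made with proteins present before the block, while products that need protein made later are lost. The same block can also raise a transcript, as is classically known for immediate-early genes, whose repressors and decay factors are short-lived; alpha-amanitin blocks RNA polymerase II and so shows which RNA is newly made.

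The study asked how the maternal transcription factors Nanog, SoxB1 and Pou5f1 act in genome activation. Whole embryos of the TUAB strain were used, with RNA of 5 embryos pooled per library. In 31 libraries, total RNA without ribosomal RNA was measured from 2 to 6 hpf and poly(A)-selected RNA from 4 to 8 hpf, and another 4 came from ribosome profiling. Only total RNA at 6 hpf was replicated, with 3 libraries of WT and 2 of Nanog + SoxB1 MO, and nothing in the labels says that these came from separate clutches, so that p-values measure only the spread between these samples. Untreated WT embryos were the controls. Cycloheximide was added to the bath of embryos at the 32-cell stage, and all else was injected at the 1-cell stage: alpha-amanitin, antisense morpholinos (MO) against Nanog, against SoxB1 or against both, and the U1U2 MO against the splicing RNAs U1 and U2. MZpou5f1 embryos lacked maternal and zygotic Pou5f1 (allele hi349Tg on both chromosomes; the gene is pou5f3 in the names table), and were used alone, with either MO, with both (here called triple loss), and with both plus rescue mRNA. An MO leaves the transcript of its target in place, so that the loss of Nanog and SoxB1 protein cannot be read from the 31 libraries. The ribosome profiling of their messages is not given here.

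Relative depth, estimated from the smallest steps of the values, ran from 0.227 to 2.58 of that of WT total RNA at 4 hpf, with 0.391 for cycloheximide at 6 hpf and 2.58 at 4 hpf. The transcript of pou5f3 was at 157.5 RPKM in WT at 4 hpf and from 0.088 to 1.87 RPKM in the MZpou5f1 libraries with an MO at 4 hpf. The library labelled MZpou5f1 alone at 4 hpf held 28.0 RPKM. The counts of members lower in Nanog MO and of those called in MZpou5f1 are therefore given with and without it. Most other values that rest on it are given with it only. Genes of other lineages were low in cycloheximide at 6 hpf: of the 17 tested genes of the enveloping layer, 14 were lower and 2 higher than in WT, and of 20 ventral genes 17 were lower and none higher (limma, adjusted p under 0.05; over all entries 23% lower and 37.5% higher). Of 12 tested transcripts stored in the oocyte, 8 were higher and 2 lower, with a median log2 difference of 4.74 against 0.35 over all entries. In whole-embryo RNA, fewer cells making a transcript and less of it per cell cannot be told apart.

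By the rule, cycloheximide at 6 hpf held from 5.51 to 191.4 RPKM of the 58 transcripts, with a median of 16.3 RPKM, and the median of their WT means was 3.17 RPKM. These values chose the members and carry no test. The ratio to the WT mean ran from 2.00 to 73.3 with a median of 4.54, leaving out 2 members listed at 0 in all 3 WT libraries. Just inside the threshold were isg15 at 2.00, the mir-430 hairpin at 2.12 and mxtx2 at 2.25 times the WT mean. Just outside were an entry without a symbol at 1.98, GADD45B at 1.87 (217 RPKM against a WT mean of 115.8) and bbc3 at 1.801 times. All 58 were above each of the 3 WT replicates, isg15 by the least, with 63.75 against 63.73 RPKM in WT replicate 2.

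At 4 hpf, in libraries that the rule did not use, most of these transcripts were below WT in cycloheximide. Of the 58, 40 were at least 2-fold lower in the cycloheximide library than in the WT library, 5 were at least 2-fold higher, and 13 lay within 2-fold. Over the 14381 entries at 1 RPKM or more in any of the 4 libraries compared at this stage, 7.74% were 2-fold lower and 8.85% 2-fold higher. The median log2 difference was -1.79 over the 58 and 0.06 over those entries. Of the 58, 53 were at 1 RPKM or more in 1 of the 4 libraries. The comparison has 1 library on each side and no replicate check. Among the 106 entries left below the threshold, 95 were 2-fold lower and 0 were 2-fold higher, with a median of -2.73. So a lower level under cycloheximide at 4 hpf was shared by both sets.

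**Figure D1:**
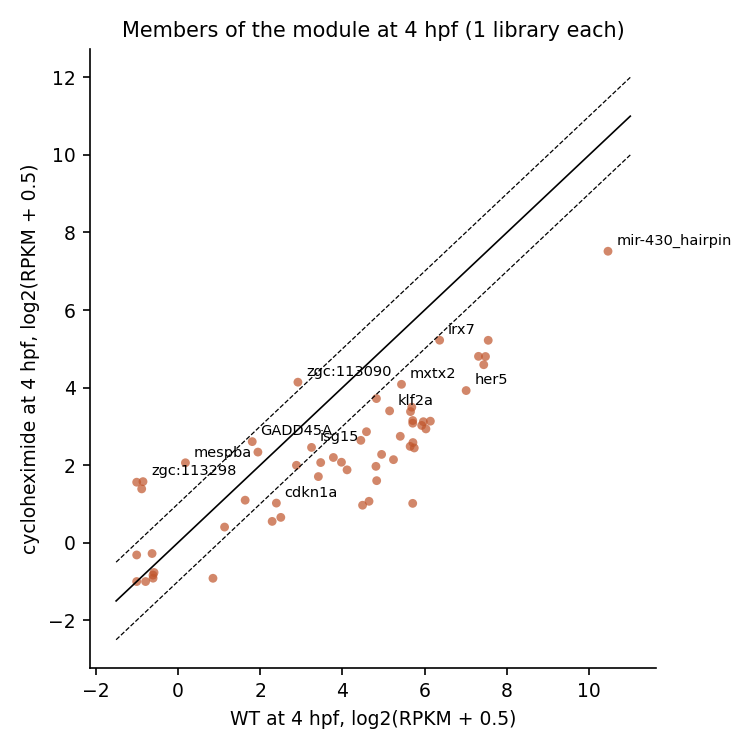
Level of each of the 58 transcripts in the cycloheximide library at 4 hpf (y axis) against the WT library at 4 hpf (x axis), both as log2(RPKM + 0.5), 1 point per transcript and 1 library on each axis. Most points lie below the line of equal levels: 40 are at least 2-fold lower and 5 at least 2-fold higher in cycloheximide.

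The 58 fell by their WT level at 4 hpf into 40 at 5 RPKM or more and 18 below, a division made after their values were seen and from the WT library that the comparisons at 4 hpf also use. Alpha-amanitin at 4 hpf was at least 4-fold below WT for 38 of the 40. Both the rule and the cut at 5 RPKM in WT favour this count, which is no independent support for new transcription. The median levels of the 40 were 42.4 RPKM in WT and 6.49 RPKM in cycloheximide at 4 hpf. At 6 hpf they were 5.10 RPKM in WT and 20.2 RPKM in cycloheximide. Of the 40, 39 had more in WT at 4 hpf than in any WT library at 6 hpf, and 38 had more in cycloheximide at 6 hpf than at 4 hpf. Still, 31 of the 40 were lower in cycloheximide at 6 hpf than in WT at 4 hpf. The rule asks for a low WT and a high cycloheximide level at 6 hpf. It thus favours a fall in WT and a rise in cycloheximide among members. For most of the 40 the excess over WT at 6 hpf thus stood beside a WT level that had already fallen, and the cycloheximide level stayed under the earlier WT one.

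**Figure D2:**
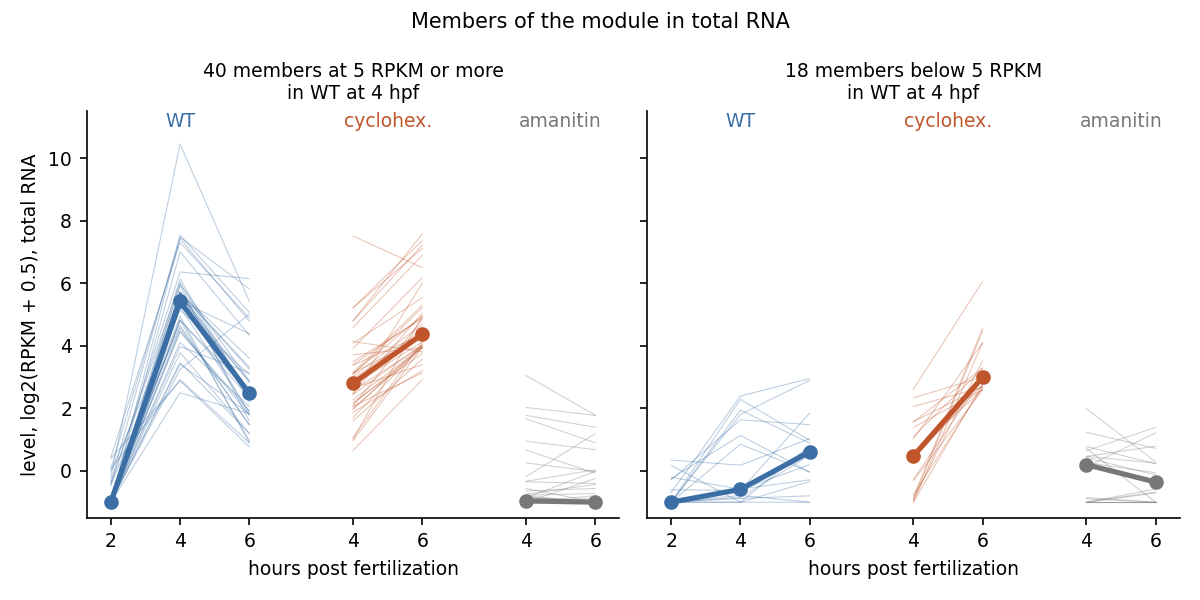
Level in total RNA, as log2(RPKM + 0.5), by hpf in WT, cycloheximide and alpha-amanitin, with 1 line per transcript and the 58 divided by their WT level at 4 hpf (40 at 5 RPKM or more, 18 below); WT at 6 hpf is the mean of 3 libraries. In the 40 the WT median goes from 42.4 to 5.10 RPKM between 4 and 6 hpf while the cycloheximide median goes from 6.49 to 20.2 RPKM. All values at 6 hpf shown here were used by the rule.

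Among the transcription factors, irx7, her5, mxtx2 and klf2a differed in their course. The homeobox gene irx7, of the Iroquois family, was at 82.0 RPKM in WT and 36.8 RPKM in cycloheximide at 4 hpf. At 6 hpf it was at 79.9, 71.5 and 60.6 RPKM in the WT replicates and 164.6 RPKM in cycloheximide. So irx7 stayed high in WT, and cycloheximide crossed from below to above it. The hairy-type repressor her5 was at 128.4 RPKM in WT and 14.7 RPKM in cycloheximide at 4 hpf, a log2 difference of -3.09. At 6 hpf her5 was at 13.8, 22.2 and 23.4 RPKM in WT and 72.1 RPKM in cycloheximide. For her5 the level under cycloheximide at 6 hpf lay between those of WT at either stage. The homeobox gene mxtx2, which acts in the yolk syncytial layer of zebrafish, was at 42.8 RPKM in WT and 16.5 RPKM in cycloheximide at 4 hpf. At 6 hpf mxtx2 was at 16.2, 26.8 and 18.5 RPKM in WT and 46.1 RPKM in cycloheximide. The Kruppel-like zinc finger gene klf2a was at 34.98 RPKM in WT and 10.1 RPKM in cycloheximide at 4 hpf, against 7.24, 4.69 and 11.9 RPKM in WT and 29.7 RPKM in cycloheximide at 6 hpf. All 4 factors were lower in cycloheximide at 4 hpf, and all 4 were above each WT replicate at 6 hpf. The rule itself asked for at least 2 times the mean of these replicates.

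The mir-430 hairpin, precursor of the microRNA family that clears maternal messages in zebrafish, had the highest level of all members in WT at 4 hpf, with 1406 RPKM. Cycloheximide at 4 hpf held 182.6 RPKM, a log2 difference of -2.94. At 6 hpf, WT held 25.02, 46.5 and 56.6 RPKM and cycloheximide 90.4 RPKM. The hairpin and zgc:113090 were lower at 6 than at 4 hpf in cycloheximide too, while the other 56 members were higher. The transcript zgc:195170 was at 51.9 RPKM in WT and 1.52 RPKM in cycloheximide at 4 hpf, and at 9.03, 6.46 and 11.7 RPKM in WT and 30.4 RPKM in cycloheximide at 6 hpf. The transcript ENSDARG00000095745 was at 158.2 and 27.5 RPKM at 4 hpf, and at 20.6, 34.4 and 33.0 RPKM in WT and 149.5 RPKM in cycloheximide at 6 hpf. No role is given here for either gene.

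Of the 40, all but 3 were at least 2-fold lower in cycloheximide at 4 hpf. The 3 were isg15, adora3a.1 and zgc:113090. The first encodes a ubiquitin-like protein of the interferon response and the next an adenosine receptor. At 4 hpf isg15 was at 9.02 RPKM in WT and 4.997 RPKM in cycloheximide, and adora3a.1 at 6.88 and 3.49 RPKM. By contrast zgc:113090 was at 7.07 RPKM in WT and 17.1 RPKM in cycloheximide. The other 4 members that were 2-fold higher in cycloheximide at 4 hpf were low in WT. The cytosolic glucosidase gene gba3 was listed at 0 in WT and at 2.45 RPKM in cycloheximide, and mespba, a bHLH factor of the presomitic mesoderm, at 0.637 and 3.68 RPKM. The gba3 entry covers only positions 72889010 to 72889255 of chromosome 7 (Zv9), so that its low values can rest on few reads. The transcripts zgc:113298 and zgc:171500 were at 0.056 and 0.044 RPKM in WT and at 2.48 and 2.12 RPKM in cycloheximide.

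The alpha-amanitin library at 4 hpf, which the rule did not use either, was at least 4-fold below WT for 41 of the 58 (4.97% of all entries). The rule does ask for scarcity in WT at 2 hpf and for a low alpha-amanitin level at 6 hpf. Low alpha-amanitin at 4 hpf is therefore favoured among members, and the count is no independent support. Of the 48 members at 1 RPKM or more in cycloheximide at 4 hpf, 41 were at least 4-fold below that level in alpha-amanitin. The 7 others were adora3a.1, zgc:113090, gba3, tmem116, plgrkt, zgc:113298 and zgc:171500. For zgc:113090, alpha-amanitin held 7.81 RPKM beside 7.07 RPKM in WT, and for plgrkt, which encodes a plasminogen receptor, 3.49 beside 3.36 RPKM. For gba3, zgc:113298 and zgc:171500 it held 1.15, 1.85 and 0.707 RPKM, beside 0, 0.056 and 0.044 RPKM in WT. For these 5 the library blocked for RNA polymerase II was as high as WT or higher at 4 hpf, so the word zygotic is not borne out there at that stage. At 6 hpf alpha-amanitin held 2.94, 1.15 and 0.46 RPKM of zgc:113090, zgc:113298 and zgc:171500, above their WT means of 1.37, 0.915 and 0.076 RPKM. It was below the WT mean for plgrkt (0.725 beside 1.36 RPKM) and gba3 (0 beside 1.24 RPKM). Alpha-amanitin was also above the WT mean at 6 hpf for adora3a.1 (2.93 beside 1.21 RPKM) and si:dkey-104n9.1 (2.13 beside 0.476 RPKM). The same held for si:dkey-4i23.7 (1.23 beside 0.290 RPKM) and si:ch211-240j18.2 (0.676 beside 0 RPKM).

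Intron reads, which mark unspliced and so recently made RNA, gave a second view of the 4 hpf libraries. An intron entry was present for 53 members, and 35 of these had 0.5 intron RPKM or more in WT at 4 hpf. Their median was 6.48 intron RPKM in WT, 0.956 in cycloheximide and 0 in alpha-amanitin. Alpha-amanitin was at least 4-fold lower than WT for 34 of the 35, as for 90.1% of the 2975 entries with such intron signal. Cycloheximide was at least 2-fold lower for 31 of the 35, against 80.2% of those entries. The share of members with less intron signal in cycloheximide was therefore close to that of all transcribed introns. For irx7 intron signal was 1.54 RPKM in WT and 2.69 RPKM in cycloheximide, and thus not lower, while for her5 it was 6.84 and 1.73 RPKM.

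The 18 members below 5 RPKM in WT at 4 hpf were set apart by that cut alone, and members beside it could be alike. Just below it, cdkn1a was at 4.76 RPKM in WT and 1.53 RPKM in cycloheximide at 4 hpf. Just above it, ENSDARG00000095881 was at 5.17 and 1.07 RPKM. The medians of the 18 at 4 hpf were 0.165 RPKM in WT, 0.894 RPKM in cycloheximide and 0.651 RPKM in alpha-amanitin. At 6 hpf they were 1.03 RPKM in WT and 7.47 RPKM in cycloheximide. In 11 of them WT at 4 hpf was below 1 RPKM. A set of 6 was at least 4-fold higher, as a plain ratio of RPKM, in cycloheximide at 6 hpf than in any of the other 30 mRNA libraries: si:dkey-29f21.5, si:dkey-40h17.5, si:ch211-145m1.3, si:dkey-4i23.7, si:ch211-161h7.5 and si:ch211-240j18.2. The first of them was at 23.1 RPKM there, against 2.62 RPKM in its next highest library, a WT replicate at 6 hpf. For si:dkey-40h17.5 the values were 21.8 and 2.01 RPKM, and for si:ch211-145m1.3 they were 16.7 and 0.409 RPKM. The level of these 6 rests on a single library with 0.391 of the depth of WT at 4 hpf, and no second cycloheximide library at 6 hpf was analysed here. On the same scale the WT replicates at 6 hpf were at 0.389, 0.272 and 0.423. In the cycloheximide library at 4 hpf all 6 were under 1 RPKM, with si:ch211-240j18.2 the highest at 0.304 RPKM. Alpha-amanitin at 4 hpf held 1.22 RPKM of si:ch211-240j18.2 and 0.879 RPKM of si:dkey-4i23.7, both listed at 0 in WT at that stage.

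Genes of growth arrest and stress made up a further group, and they differed among themselves. GADD45A, a growth arrest and DNA damage gene, was at 3.00 RPKM in WT and 5.60 RPKM in cycloheximide at 4 hpf. At 6 hpf GADD45A was at 4.197, 10.1 and 6.64 RPKM in WT, 66.5 RPKM in cycloheximide and 0.113 RPKM in alpha-amanitin. Its family member GADD45G was at 0.148 and 0.325 RPKM at 4 hpf, and at 3.29, 4.17 and 1.86 RPKM in WT and 7.43 RPKM in cycloheximide at 6 hpf. The cell cycle inhibitor cdkn1a, a target of p53, was at 4.76 RPKM in WT and 1.53 RPKM in cycloheximide at 4 hpf, and at 3.32, 12.6 and 5.85 RPKM in WT and 16.6 RPKM in cycloheximide at 6 hpf. GADD45A thus stood far above WT in cycloheximide at 6 hpf, while cdkn1a stood close to its highest WT replicate.

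Some of these genes were also high in other treated embryos, as was isg15. In this contrast the WT libraries are those that the rule asked to be low, so higher calls among members are favoured by the choice. At 6 hpf the replicates of Nanog + SoxB1 MO held 62.7 and 65.2 RPKM of cdkn1a, 22.4 and 23.6 RPKM of GADD45A, and 99.9 and 86.5 RPKM of isg15. GADD45G was at 3.25 and 2.13 RPKM there, within the range of its WT replicates. For cdkn1a and isg15 the Nanog + SoxB1 MO levels exceeded the cycloheximide level, and for GADD45A they lay below it. None of the Nanog + SoxB1 MO values of cdkn1a, GADD45A or isg15 overlapped with the WT replicates, of which the second held 63.7 RPKM of isg15 and the others 6.81 and 25.04 RPKM. The change against WT was 3.24 ± 0.46 (log2, SE) for cdkn1a (limma, adjusted p = 0.00204), 1.73 ± 0.33 for GADD45A (adjusted p = 0.0061) and 2.03 ± 0.79 for isg15, which was not called. The GADD45A call was lost without either Nanog + SoxB1 MO replicate (adjusted p = 0.0609 and 0.0661). At 4 hpf, GADD45A was at 47.2 RPKM in Nanog + SoxB1 MO, 10.4 RPKM in Nanog MO and 3.70 RPKM in SoxB1 MO. On MZpou5f1 it was at 4.30 RPKM without an MO, 19.0 RPKM with Nanog MO and 1.77 RPKM with SoxB1 MO. With both MOs on MZpou5f1 it was at 2.195 RPKM, below the 3.00 RPKM of WT, and with rescue mRNA added at 24.8 RPKM. Injected embryos are compared here with uninjected ones, and injection as such cannot be told apart from the loss of the factors.

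**Figure D3:**
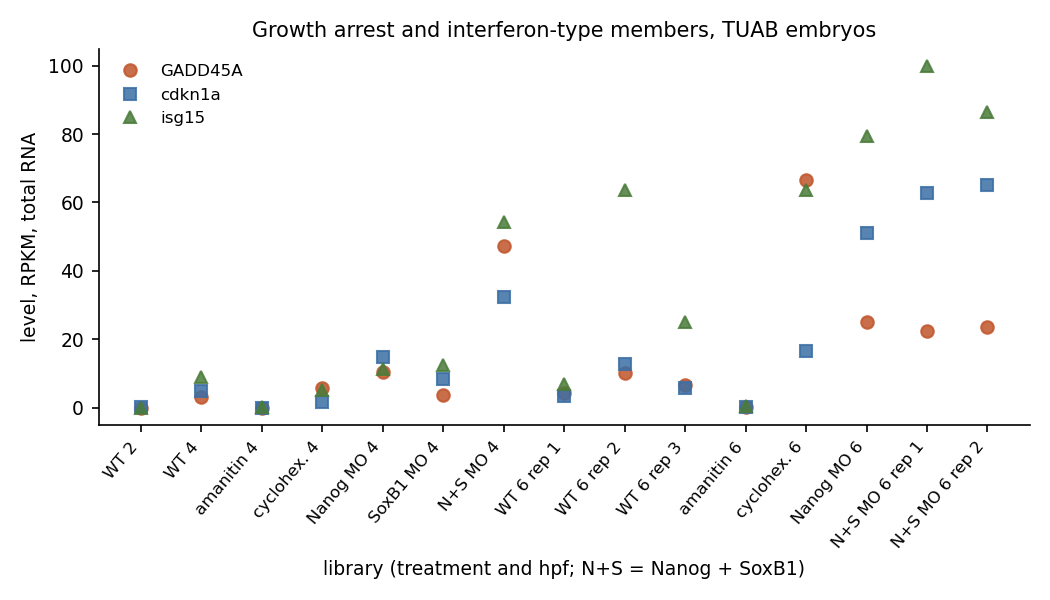
Level in RPKM of GADD45A, cdkn1a and isg15 in total RNA libraries (x axis: treatment and hpf), 1 point per library. Shown are WT, alpha-amanitin, cycloheximide, Nanog MO, SoxB1 MO and both MOs. The libraries of U1U2 MO, of MZpou5f1 and of the rescue are not shown. At 6 hpf the Nanog + SoxB1 MO replicates hold 62.7 and 65.2 RPKM of cdkn1a beside 3.32 to 12.6 RPKM in WT, and cycloheximide holds 66.5 RPKM of GADD45A beside 4.197 to 10.1 RPKM in WT.

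Immediate-early and fast feedback genes, from a list of such genes, went both ways in cycloheximide at 6 hpf: of 37 tested, 15 were higher and 13 lower than in WT, with a median log2 difference of 0.03 beside 0.35 over all entries. The list holds 2 of the 58 members. Among its genes that are no members, NR4A1, a nuclear receptor gene, was at 2.02, 3.19 and 0.961 RPKM in WT and at 21.6 RPKM in cycloheximide, a change of 3.21 ± 0.51 (limma, adjusted p = 0.00175). CEBPB, a leucine zipper factor, went the other way, with 107.9, 99.5 and 115.5 RPKM in WT and 8.69 RPKM in cycloheximide, a change of -3.55 ± 0.15 (adjusted p = 1.59e-05). In the list of hairy, hey and id repressors, which holds her5, 8 of 15 tested genes were lower and 2 higher; HES6 was at 74.9, 56.7 and 60.4 RPKM in WT and 2.66 RPKM in cycloheximide. Among 24 tested genes of the p53, heat and stress response, 9 were lower and 6 higher, against 23% and 37.5% of all entries. The counts of these lists include their members, which the rule chose for being higher; this last list holds 2. One higher gene that is no member was sesn2, a sestrin of the stress response, with 5.37, 4.94 and 4.14 RPKM in WT and 57.7 RPKM in cycloheximide. At 4 hpf sesn2 was already at 35.2 RPKM in WT and 50.4 RPKM in cycloheximide. Its difference at 6 hpf thus stood beside a fall in WT. In each of these fits the cycloheximide library stood alone and was assumed to vary like the replicated groups.

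WT poly(A)+ RNA libraries were not used by the rule, and in them most members had their highest level at 4 hpf. The rule asks for a low WT level in total RNA at 6 hpf, however, and the 106 are the entries that failed this, so a lower level after 4 hpf is favoured among members. In 37 of the 58 the level was lower at 6 than at 4 hpf and lower again at 8 hpf, against 13 of the 106 entries left below the threshold. Of the 33 members at 5 RPKM or more in poly(A)+ RNA at 4 hpf, 29 were at least 4-fold lower by 8 hpf. The same held for 8 of 71 such entries among the 106, and for 32% of the 8426 such entries overall. The medians over the 40 members with a WT level of 5 RPKM or more were 11.4, 1.71 and 0.354 RPKM at 4, 6 and 8 hpf. These are single libraries.

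**Figure D4:**
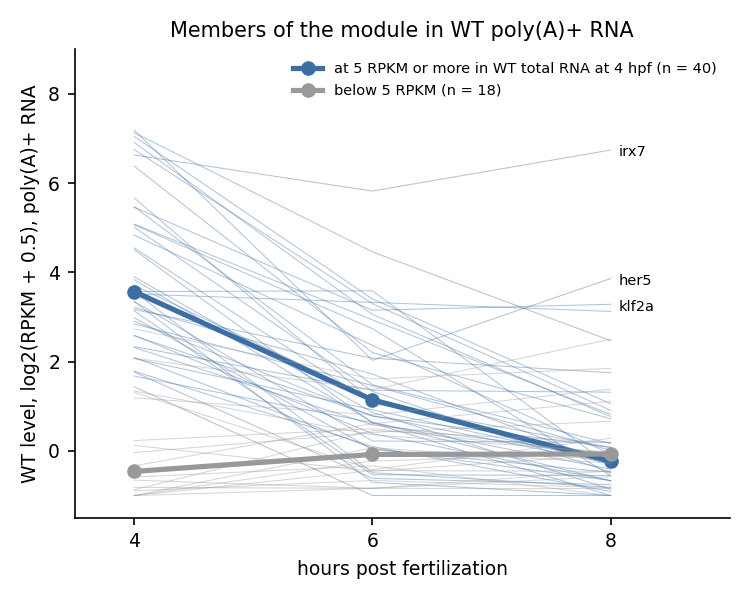
WT level in poly(A)+ RNA, as log2(RPKM + 0.5), at 4, 6 and 8 hpf, with 1 line per member and 1 library per stage. For the 40 members with at least 5 RPKM in WT total RNA at 4 hpf the medians go from 11.4 through 1.71 to 0.354 RPKM, while irx7 ends at 106.5 RPKM.

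Single genes show the range. irx7 was at 98.6, 56.1 and 106.5 RPKM at 4, 6 and 8 hpf, the highest at 8 hpf. her5 was at 145.0, 3.58 and 14.0 RPKM. mxtx2 went from 43.8 through 2.30 to 0.620 RPKM, and si:dkey-285e18.3 from 82.8 through 4.098 to 1.15 RPKM. In all, 8 members had their highest WT poly(A)+ level at 8 hpf, among them GADD45A, GADD45G, plgrkt and mespba, against 32 of the 106. Many members were also poorly represented in poly(A)+ RNA: at 4 hpf 21 of the 40 were at least 2-fold below total RNA, against 23% of all entries at 5 RPKM or more. The mir-430 hairpin was the extreme, with 2.91 RPKM in poly(A)+ and 1406 RPKM in total RNA.

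Dependence on the 3 factors was tested at 4 hpf in an additive fit of 8 total RNA libraries (WT, Nanog MO, SoxB1 MO, both MOs, and the same 4 in MZpou5f1), none of which the rule used. Most members were lower with Nanog MO. Of the 51 that passed the filter on low values, 35 were lower and 1 was higher (limma, adjusted p under 0.05), against 2.34% lower and 5.35% higher over the 14498 entries tested. All 35 belonged to the 40 with 5 RPKM or more in WT at 4 hpf, a group set by a library of this fit. The 18 below had a median of 0.165 RPKM in that library and so little room to fall. The changes of the 35 ran from -8.32 to -2.09 on the log2 scale. Without the library labelled MZpou5f1, 33 were lower. Of the 106 entries left below the threshold, 62 of 104 tested were lower.

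The mir-430 hairpin had the strongest change. It was at 1406, 1688, 1141 and 830.6 RPKM in the libraries without Nanog MO (WT, SoxB1 MO, MZpou5f1, and MZpou5f1 with SoxB1 MO). With Nanog MO added to each of these 4, in the same order, it was at 15.0, 0.681, 4.67 and 1.76 RPKM. The 2 sets of libraries were far apart, with a change of -8.32 ± 0.53 (limma, adjusted p = 8.44e-05). In the same orders her5 was at 128.4, 111.1, 164.8 and 131.0 RPKM without and at 1.35, 0.806, 0.807 and 1.15 RPKM with Nanog MO, a change of -6.46 ± 0.15 (adjusted p = 3.05e-07). her5 was at 1.35 RPKM or less in every library with Nanog MO at this stage, and neither SoxB1 MO nor MZpou5f1 shifted it past the test.

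For mxtx2 the levels were 42.8, 45.6, 40.0 and 55.6 RPKM without and 3.35, 1.797, 2.25 and 1.08 RPKM with Nanog MO, again with no overlap (change -4.21 ± 0.23, limma, adjusted p = 4.21e-05). The changes of zgc:195170 and ENSDARG00000095745 were -5.82 ± 0.23 and -4.78 ± 0.13 (adjusted p = 5.16e-06 and 1.1e-06). irx7 differed in degree. It was at 82.0, 59.8, 40.7 and 38.8 RPKM without Nanog MO, at 36.3 RPKM in Nanog MO alone, and at 4.38, 7.51 and 4.17 RPKM in the 3 libraries that combined Nanog MO with another loss. Nanog MO alone thus left irx7 close to the level of MZpou5f1, and its change in the additive fit was -2.56 ± 0.39 (adjusted p = 0.00776). klf2a, at 34.98 RPKM in WT, 20.6 RPKM in Nanog MO and 2.88 RPKM in Nanog + SoxB1 MO, had the smallest change among the 35. For irx7 and klf2a the additive model averages unequal steps, and an interaction was not tested.

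Of the 40, 5 were not called lower in Nanog MO: isg15, adora3a.1, zgc:113090 and 2 entries without a symbol. The 1 member that was higher was mespba, from 0.637, 1.26, 1.795 and 2.49 RPKM without to 2.40, 2.11, 3.17 and 4.39 RPKM with Nanog MO (0.83 ± 0.18, limma, adjusted p = 0.0277). This call was lost without any of 6 of the 8 libraries, with adjusted p from 0.0564 to 0.0983. Those 6 were WT, SoxB1 MO, both MOs, MZpou5f1, and the latter with Nanog MO or with both.

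In SoxB1 MO, 0 of the 51 were called in either direction by the limma test (0.0552% lower and 0.0897% higher over all entries). At an unadjusted p under 0.05, 7 were lower and 1 was higher. Intron signal was in the same order: of the 35 members with intron signal, 30 were at least 4-fold lower in Nanog MO and 0 in SoxB1 MO, against 13% and 4.91% of all such entries, and 30 were 4-fold lower in Nanog + SoxB1 MO (20%).

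In MZpou5f1 members went both ways, with 16 lower and 15 higher of 51, where 18% of all entries were lower and 24.1% higher. Without the library labelled MZpou5f1, 12 were lower and 15 higher. Among the higher were zgc:113298, at 0.056, 0, 0 and 0 RPKM in WT, Nanog MO, SoxB1 MO and both MOs, and at 5.35, 6.95, 5.59 and 8.01 RPKM in the same 4 on MZpou5f1. The change was 3.75 ± 0.18 (limma, adjusted p = 4.75e-06). zgc:171500, plgrkt and gba3 were higher too, by 3.40 ± 0.21, 2.54 ± 0.39 and 2.11 ± 0.35 (adjusted p = 1.39e-05, 0.00119 and 0.0018). For zgc:113298 and zgc:171500 the 4 MZpou5f1 libraries of this fit did not overlap with the other 4. The mutant line as such and the loss of Pou5f1 cannot be told apart here. The rescue library at 4 hpf, also on MZpou5f1, held 8.32 RPKM of zgc:113298 and 0.942 RPKM of zgc:171500.

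U1 and U2 are the RNAs that recognise the start of an intron and its branch point, so that their loss blocks splicing. In U1U2 MO, 14 of the 58 were at least 4-fold below WT at 4 hpf (1.31% of entries) and 1, GADD45G, at least 4-fold above (0.146%). A lower level was more frequent among the 106 entries left below the threshold, of which 39 were at least 4-fold below WT. Of the 40, 13 were 4-fold lower in U1U2 MO, of which only znf1089 has a symbol. In these 13 the median was 51.9 RPKM in WT, 1.65 RPKM in U1U2 MO, 5.66 RPKM in the library labelled MZpou5f1, 0.737 RPKM in MZpou5f1 with SoxB1 MO and 12.8 RPKM in the rescue. In the other 27 it was 42.0 RPKM in WT, 20.1 RPKM in U1U2 MO, 38.1 RPKM in MZpou5f1, 38.8 RPKM in MZpou5f1 with SoxB1 MO and 25.5 RPKM in the rescue. This division was made after the values were seen, and U1U2 MO and MZpou5f1 are compared with the same WT library at 4 hpf, so that its error is shared; no test is given. SoxB1 MO alone, a library apart from these, held medians of 27.0 RPKM in the 13 and 27.5 RPKM in the 27.

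The zinc finger gene znf1089 was at 28.0 RPKM in WT, 24.4 RPKM in SoxB1 MO, 1.70 RPKM in U1U2 MO, 4.35 RPKM in the library labelled MZpou5f1 and 0.514 RPKM in MZpou5f1 with SoxB1 MO. It was thus a little below WT in SoxB1 MO alone, where it was not called, and far lower in the others. Its change in MZpou5f1 was -2.33 ± 0.56 (limma, adjusted p = 0.0104). Among entries without a symbol, ENSDARG00000091276 was at 60.4 RPKM in WT, 44.4 RPKM in SoxB1 MO, 1.12 RPKM in U1U2 MO, 13.4 RPKM in MZpou5f1 and 2.18 RPKM in MZpou5f1 with SoxB1 MO. At 6 hpf, MZpou5f1 was below all 3 WT libraries for 9 of the 13 and above all 3 for 0. For the 27 it was below for 2 and above for 22; the rule, which asks for a low WT level at this stage, favours the latter. Median intron signal went from 10.1 RPKM in WT to 2.67 RPKM in U1U2 MO over 11 of the 13 with an intron entry. Over 25 of the 27 it went from 4.81 to 19.8 RPKM. These values come from the WT and U1U2 MO libraries that set the 13 apart, so a lower signal in the 13 is favoured by the choice. For irx7 intron signal went from 1.54 to 161.8 RPKM, while the exon level went from 82.0 to 166.1 RPKM.

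**Figure D5:**
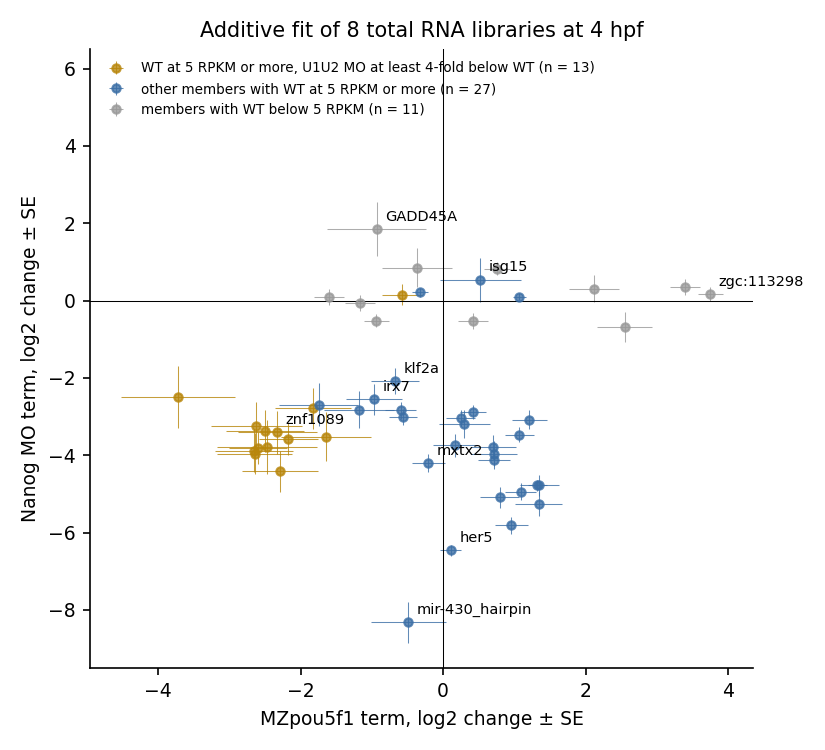
Change in Nanog MO (y axis) against change in MZpou5f1 (x axis) for the 51 tested members, both as log2 change ± SE from the additive limma fit of 8 total RNA libraries at 4 hpf; colours set apart 13 members that were 4-fold lower in U1U2 MO, the other 27 members with 5 RPKM or more in WT at 4 hpf, and the 11 tested members below it. The Nanog MO change runs down to -8.32 for the mir-430 hairpin, znf1089 lies at -2.33 on the MZpou5f1 axis and zgc:113298 at 3.75; the WT library at 4 hpf is shared by the axes and the colours.

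At later stages the factors were followed by triple loss and rescue, in a fit over total RNA of 4 hpf and poly(A)-selected RNA of 6 and 8 hpf, with stage as a block. Of the 50 members tested, 8 were lower in triple loss than in WT and 3 higher (limma). Over all entries 4.64% were lower and 11.6% higher, with their median shifted by 0.45. Among the 106 entries left below the threshold, 56 were lower and 2 higher. The rule favours members with a low WT level after 4 hpf, so both sets cannot be compared as alike. Over members, the medians in WT poly(A)+ RNA at 6 and 8 hpf were 1.14 and 0.446 RPKM. Over the 106 they were 40.1 and 37 RPKM. Most members thus had little room to fall at these stages. At 4 hpf, triple loss was at least 4-fold below WT for 36 of the 40 members at 5 RPKM or more in WT. That group was set by the same WT library. The share of all entries past this fold was not counted, so the 36 cannot be set against it. irx7 was at 82.0, 56.1 and 106.5 RPKM in WT at 4, 6 and 8 hpf, at 4.17, 2.45 and 1.77 RPKM in triple loss, and at 71.7, 35.3 and 50.3 RPKM in the rescue. The triple loss values lay below all others at each stage, and the change was -4.66 ± 0.32 (adjusted p = 0.000748). her5 was lower as well, by -4.02 ± 0.79 (adjusted p = 0.0308); its adjusted p ran from 0.0532 to 0.133 without any of 6 libraries: rescue at 4 hpf, triple loss or rescue at 6 hpf, and WT, triple loss or rescue at 8 hpf.

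The 3 higher members were cdkn1a (3.20 ± 0.85, limma, adjusted p = 0.0452), adora3a.1 (2.44 ± 0.55, adjusted p = 0.0367) and isg15 (2.28 ± 0.62, adjusted p = 0.0469). In triple loss cdkn1a was at 6.26, 67.3 and 97.9 RPKM at 4, 6 and 8 hpf, against 4.76, 2.56 and 3.10 RPKM in WT and 22.9, 10.9 and 25.6 RPKM in the rescue. The rescue thus lay above WT at each stage and, at 6 and 8 hpf, below triple loss. These 3 calls were fragile. Their count was 17 without triple loss at 4 hpf, 6 without WT at 4 hpf, 1 without the rescue at 4 hpf and 0 without any 1 of the 6 libraries of 6 or 8 hpf. The count of lower members was 1 without triple loss at 6 or 8 hpf or the rescue at any stage, 2 without WT at 6 hpf and 3 without WT at 8 hpf.

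With rescue mRNA, 5 of the 50 were above triple loss and 0 below it (limma, with 0.605% and 0.00624% over all entries). Among the 106 entries left below the threshold, 34 were above triple loss and 0 below it. As the rule favours members with a low WT level after 4 hpf, the shares of both sets cannot be compared as alike. At an unadjusted p under 0.05, 18 of the 50 members were higher and 1 was lower. ENSDARG00000095745 was at 10.4, 2.21 and 0.523 RPKM in triple loss and at 284.1, 88.2 and 38.7 RPKM in the rescue, where WT held 158.2, 7.82 and 1.21 RPKM. The rescue was above WT at all 3 stages and most so at 8 hpf, with a change of 4.998 ± 0.634 over triple loss (adjusted p = 0.0151). The change of irx7 was 4.01 ± 0.32 (adjusted p = 0.00184). The remaining 3 have no symbol. Without single libraries the count of higher members ran from 1 to 9: it was 1 without triple loss or the rescue at 6 hpf or the rescue at 8 hpf, 3 without the rescue at 4 hpf, 8 without triple loss at 4 hpf and 9 without WT at 4 hpf. The count of lower members was 7 without triple loss at 4 hpf.

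At 6 hpf the replicated comparison of Nanog + SoxB1 MO with WT shares the WT libraries that the rule used as its low side, so members were selected for low WT values there. Of the 55 tested, 13 were lower and 7 higher (limma; 14% and 30.3% of all entries, with a median shift of 0.30). her5 was at 0.804 and 0.404 RPKM in Nanog + SoxB1 MO against 13.8, 22.2 and 23.4 RPKM in WT (change -4.19 ± 0.29, adjusted p = 0.000146). mxtx2 was at 1.63 and 1.23 RPKM against 16.2, 26.8 and 18.5 RPKM (-3.42 ± 0.27, adjusted p = 0.000221), and irx7 at 14.0 and 12.4 RPKM against 79.9, 71.5 and 60.6 RPKM (-2.38 ± 0.16, adjusted p = 0.00013). None of the 3 overlapped with WT. zgc:195170 and ENSDARG00000095745 were lower by -2.25 ± 0.45 and -2.09 ± 0.31 (adjusted p = 0.00762 and 0.00224).

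Nanog MO alone had 1 library at 6 hpf, with 93.5 RPKM of irx7, 11.1 RPKM of her5 and 2.19 RPKM of mxtx2. irx7 was there above all 3 WT replicates, her5 a little below them and mxtx2 far below. Besides cdkn1a and GADD45A, the members with a symbol that were higher in Nanog + SoxB1 MO were si:dkey-199k11.6 (1.37 ± 0.30, limma, adjusted p = 0.0107), adora3a.1 (1.32 ± 0.40, adjusted p = 0.0338) and si:dkey-285e18.3 (0.89 ± 0.25, adjusted p = 0.0261). The first lost its call without Nanog + SoxB1 MO replicate 1 (adjusted p = 0.0915). adora3a.1 lost it without WT replicate 1 or 2 or Nanog + SoxB1 MO replicate 1 (adjusted p from 0.0856 to 0.197), and si:dkey-285e18.3 without WT replicate 2 or 3 or either Nanog + SoxB1 MO replicate (0.0579 to 0.186). The count of higher members was 4 without either Nanog + SoxB1 MO replicate.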

How the data were processed

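For exons and introns the authors deposited RPKM values, with 1 column per library, besides a profiling table of the 64-cell stage. The authors deposited that table under the name of RPKM, but its values were read here as RPM, since they step by whole reads whatever the transcript. Per the submitters' processing notes, TopHat2 2.0.7, Bowtie 0.12.9 and CASAVA 1.8.2 were used, on build Zv9 (danRer7). The tables hold no counts, so absolute depth is unknown. The 846 of 27997 exon entries that join several genes were left out. Symbols matched 72.9% of the rest.

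Entries that reached 1 RPKM in 2 or more libraries were fitted as log2(RPKM + 0.5) with limma 3.58.1 under R 4.3.3 (lmFit, eBayes with trend), with Benjamini-Hochberg adjusted two-sided p under 0.05. Fitted changes and the folds counted for exons in cycloheximide, alpha-amanitin and U1U2 MO against WT at 4 hpf are on that scale and understate changes of low genes, while the rule's ratios, the alpha-amanitin count over the 40 and all other folds use plain RPKM; single-library comparisons at 4 hpf have no test. The 4 hpf fit was additive (8 libraries, 14498 entries, 4 residual degrees of freedom). The rescue fit had stage, and with it RNA selection, as a block (9 libraries, 16028 entries, 4 degrees of freedom). The 6 hpf fit took group means (11 libraries, 16242 entries, 3 degrees of freedom). The first 2 hold no replicates, so their spread also holds effects that are not additive. Steps were tested on simulated data.

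The members and the 9 gene lists were chosen with earlier results of these data known. Named genes were members with a symbol that ranked highest in cycloheximide or in its ratio to WT, members in a list, the most changed called members of each contrast, the neighbours of the threshold, and up to 4 further called genes per list. Genes named as exceptions to a count, and tmem116, plgrkt and ENSDARG00000091276 beside them, were named after their values were seen. Alternatives were other pseudocounts and filters, centring on the median, a stricter rule, a replicate block and leaving out each library.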

Additional observations from a re-analysis of the deposited data

Results flagged for a closer look

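The direction of the difference between cycloheximide and WT differed between stages: 40 of the 58 members were at least 2-fold below WT at 4 hpf, while all 58 were at least 2-fold above the WT mean at 6 hpf. The direction at 6 hpf was fixed by the rule that chose the members. There was 1 cycloheximide library per stage, and the difference between the stages was not tested. The relative depth of the cycloheximide libraries was 2.58 at 4 hpf and 0.391 at 6 hpf; the part of depth in the difference was not tested.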

How the results depend on the processing

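With each library centred on its median, 37 entries met the rule (21 lost, 0 gained), of which 30 were 2-fold lower and 1 higher in cycloheximide at 4 hpf and 29 lower in Nanog MO. Of the 32 results for named genes, none changed direction; 391 of their alternative values kept the call and 68 lost it. Centring gave 13 members lower and 1 higher in triple loss, and 4 higher in Nanog + SoxB1 MO at 6 hpf. Without a filter, 1 member was lower and 0 higher in triple loss, 3 higher in the rescue, 4 higher in Nanog + SoxB1 MO at 6 hpf and 0 higher in Nanog MO. Members higher in Nanog MO were 0 also with a filter at 5 RPKM and with a rule asking for 10 RPKM, under which 1 was 2-fold higher in cycloheximide at 4 hpf. A pseudocount of 1 gave 3 members lower in triple loss, and a rule asking for 3-fold above WT gave 1 higher. The cause of these shifts was not tested.

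Leaving out each of the 3 WT libraries at 6 hpf gave from 53 to 60 members, of which 36 to 43 were 2-fold lower and 5 higher in cycloheximide at 4 hpf. Leaving out each library of a fit in turn gave from 8958 to 10091 entries called in cycloheximide at 6 hpf (9826 with all). Members lower and higher ran from 30 to 35 and 0 to 1 in Nanog MO, 0 and 0 in SoxB1 MO, 12 to 18 and 14 to 15 in MZpou5f1, 1 to 7 and 0 to 17 in triple loss, 0 to 7 and 1 to 9 in the rescue, and 12 to 13 and 4 to 8 in Nanog + SoxB1 MO at 6 hpf.

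The replicate block at 6 hpf gave 13 members lower and 7 higher, as without it, and 10402 entries called in cycloheximide; si:dkey-285e18.3 lost its call (adjusted p = 0.0739). Deviations of same-numbered libraries correlated at 0.0856 and 0.0625, with 2 pairs, so the numbers were not taken as pairs. Single libraries at most conditions, whole pooled embryos and a cycloheximide library at 6 hpf about as shallow as those of WT limit all values.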

Other observations

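The profiling table of the 64-cell stage holds 5 of the 58 members by their own symbol, all with few reads. Reads were recovered from the smallest step of the deposited values, read as RPM; in each of the 4 columns 100% of the values lay within 0.1 of a whole number of steps. With 1 library per condition and kind of RNA no test was made. For plgrkt there were 32 input and 6 footprint reads in WT, and 37 and 0 in Nanog + SoxB1 MO. For zgc:113090 there were 25 and 7 in WT, and 19 and 1 in Nanog + SoxB1 MO. The others (gba3, tmem116 and klf2a) had at most 14 input and 2 footprint reads in any library. In total RNA of WT at 2 hpf plgrkt was listed at 0 and zgc:113090 at 0.550 RPKM. The plgrkt member is a single copy on an unplaced scaffold of Zv9, while the profiling entry is given by transcript alone, so its reads need not come from that copy.

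Most tested genes of embryonic patterning lay below WT in cycloheximide at 6 hpf. The counts include 2 members in the list of mesoderm, endoderm and FGF signalling and 1 in the neuroectodermal list, which the rule chose for being higher. Of 26 tested genes of the dorsal organizer and Nodal signalling, 19 were lower and 1 higher. Of 22 genes of mesoderm, endoderm and FGF signalling 19 were lower and 3 higher, and of 11 neuroectodermal genes 9 and 1 (limma, adjusted p under 0.05). The keratin gene krt4 was at 999.0, 815.4 and 943.5 RPKM in WT and at 0.150 RPKM in cycloheximide, and the ventral homeobox gene eve1 at 159.8, 123.4 and 150.3 RPKM in WT and at 0.148 RPKM. On the other side BTG4, a gene of maternal RNA turnover, was at 5.66, 4.90 and 4.36 RPKM in WT and 623.2 RPKM in cycloheximide. ZAR1L, a maternal oocyte gene, was at 12.5, 12.8 and 22.4 RPKM in WT and 704.6 RPKM in cycloheximide.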
